A study of Mus musculus with 6 samples.

Results

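The genes described here are 10 mouse genes of the NRF2 antioxidant and glutathione pathway, namely Nfe2l2, Keap1, Nqo1, Hmox1, Gclc, Gclm, Txnrd1, Srxn1, Gsta4 and Gstm1. They were taken by their symbols from the annotation given to each sequenced read, and all 10 were found among 14765 gene annotations with reads. The messenger RNA came from Mvt1, a mammary carcinoma line of FVB/N mice that was derived from a tumor carrying c-Myc and VEGF transgenes, and both groups share that origin. Mvt1 cells stained for CD24, a surface protein held by a lipid anchor, were separated by flow cytometry into CD24- cells, without it on the surface, and CD24+ cells, with it. Total RNA was taken from 3 plates of adherent cells of each group, in medium with serum and with no other treatment. Both groups come from this 1 line, and differences tied to CD24 cannot be told apart from others that arose between the sorted populations.

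NRF2, the protein of Nfe2l2, is a transcription factor that pairs with a small MAF protein in the nucleus and binds the antioxidant response element of its target genes. KEAP1 holds it in the cytoplasm and hands it to a CUL3 ubiquitin ligase, and electrophiles or oxidants that modify KEAP1 let NRF2 accumulate. Its targets make glutathione, conjugate electrophiles to it, keep thioredoxin reduced, and break down quinones and heme. In carcinomas, including those of the breast, the pathway is studied for its part in redox balance and drug resistance. The control of NRF2 by KEAP1 acts on the protein, which was not measured here.

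Reads annotated to genes numbered 6491832 to 19100843 per library, and CD24+ replicate 1 was the shallowest. Levels are given as CPM, the count of a gene relative to all gene reads of the library after TMM scaling, and changes as the log2 fold-change of CD24+ over CD24- cells from edgeR's quasi-likelihood test, with its standard error (SE) and a Benjamini-Hochberg adjusted p over the 11125 genes tested. The sorted marker followed the labels, as Cd24a stood at 77.1 ± 7.30 CPM in CD24+ plates against 10.2 ± 2.79 CPM in CD24- plates (SD, n = 3 each). Of the epithelial markers, Krt8 and Krt18 were abundant (60574 and 30202 reads) and lower in CD24+ cells by edgeR, with log2 fold-changes of -1.04 and -1.78, whereas Cdh1 and Epcam had 2 and 6 reads in all 6 libraries. Vimentin was at 3884 ± 493 and 4375 ± 460 CPM, so the labelled epithelial cancer cells nearly lacked 2 defining epithelial transcripts and were rich in a mesenchymal one. Of 7 leukocyte marker symbols, of which Emr1 and Adgre1 name the same gene, 4 had reads. Of these 1, Cd68, was tested and called, with a fall from 64.6 to 8.15 CPM, whereas Ptprc had 2 reads and Csf1r 6. Their summed level was 43.6 to 76.5 CPM in CD24- and 7.34 to 9.44 CPM in CD24+ libraries. Of 7 mesenchymal markers 6 were tested and 5 were higher in CD24+ cells, and the summed level was 3609 to 4465 and 4279 to 5082 CPM. Vimentin made up most of that sum and was the tested marker not called (edgeR adjusted p = 0.248). Col1a1 and Col1a2, among those called, had 174 and 80 reads in all 6 libraries. For comparison, 23.8% of all genes tested were called higher and 22.3% lower. The summed level of 8 epithelial markers, of which 4 were tested and 4 lower, was 1889 to 2100 and 763 to 905 CPM. The 4 endothelial markers summed to 2.25 to 3.98 and 0.681 to 1.89 CPM, with Cdh5 called lower (log2 fold-change -3.23). The 4 myoepithelial markers summed to 0.105 to 1.04 and 6.49 to 14.0 CPM, with Acta2 called higher (log2 fold-change 3.87), whereas the defining keratins Krt5 and Krt14 had 1 and 3 reads. The part of these marker differences in the results below was not tested. CD24- replicate 3 stood apart within its group, since the chi-square over its degrees of freedom was 1.75 between CD24- replicates 1 and 2 but 10.25 and 11.95 between each of them and replicate 3, and it was 9.87 to 16.1 between CD24+ libraries. Without CD24- replicate 3, 8 of the 10 members were called in place of 6. Over all genes tested, 5358 of 11302 were then called in place of 5130 of 11125.

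The annotation of a read decides which gene it counts for, and for Gclm, the modifier subunit of the enzyme that starts glutathione synthesis, this mattered more than for any other of the 10 genes. When each 47-nt read was compared with GENCODE M21 transcripts by exact sequence, 31403 of the 36197 reads annotated to Gclm (86.8%) matched Ppia, the gene of cyclophilin A, an abundant protein-folding enzyme. These reads lay within 674 bases of chromosome 3 in mm9, from 121959668 to 121960341. In GRCm38, GENCODE places a transcribed processed pseudogene, Gm6061, at chr3:122256728-122257219, inside Gclm at chr3:122245557-122270732. A transcript of the opposite strand, Gm17494, lies across the same stretch. A 47-nt read cannot tell a pseudogene from its parent gene where their sequences are identical. Which of them gave these reads was not tested. Printed below, in the direction of the mRNA, are the 2 most abundant reads within coding sequence for 2 of the kinds counted as Gclm. The first pair matches the coding sequence of Ppia and no Gclm transcript, and the second pair matches the coding sequence of Gclm alone.
Ppia-matching read at mm9 chr3:121960051-121960097, plus strand: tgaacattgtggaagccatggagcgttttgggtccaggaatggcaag
Ppia-matching read at mm9 chr3:121960076-121960122, plus strand: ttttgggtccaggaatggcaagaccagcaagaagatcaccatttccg
Gclm read at mm9 chr3:121969256-121969302, plus strand: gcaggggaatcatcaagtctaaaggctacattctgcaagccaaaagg
Gclm read at mm9 chr3:121969253-121969299, plus strand: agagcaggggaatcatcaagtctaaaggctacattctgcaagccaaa
The Ppia-matching pair was sequenced 883 and 622 times over the 6 libraries, and the Gclm pair 38 times each. Of the annotated reads, 17170 (47.4%) matched Gclm and another gene, 14648 (40.5%) only another gene, and 4146 (11.5%) Gclm and no other gene. No read of the largest of these kinds is printed.

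The other members held up better to the same comparison. Reads matching the gene alone made up 99.2% for Srxn1, 99.1% for Nqo1, 98.3% for Gsta4, 97.4% for Hmox1, 95.1% for Nfe2l2 and 94.2% for Txnrd1. For Gclc the share was 84.8%, and the remaining 15.2% matched no transcript in the annotation. Keap1 shared 21.5% of its reads with another gene, mostly the antisense transcript Gm16754, and since the counts carry no strand these cannot be separated. Gstm1 shared 17.0%, of which 992 reads matched Gstm2-ps1, a pseudogene of the same family.

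**Figure D1:**
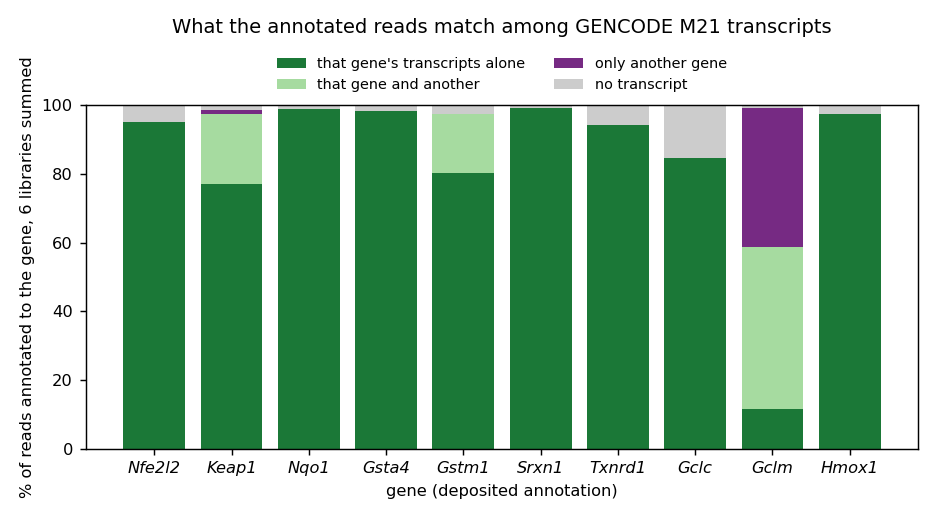
Percent of the reads annotated to each gene (y axis, 6 libraries summed) that matched GENCODE M21 transcripts of that gene alone, of that gene and another, of another gene only, or of none. Gclm stands apart, with 11.5% of its reads matching it alone.

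The promoters of the members were searched for the core of the antioxidant response element, written as TGACNNNGC and read on both strands. RefSeq windows of GRCm38.p6, from 250 bases before to 50 after the start, were at hand for 7 of the 10 members (10 windows, since Txnrd1 and Gstm1 have several starts). The core was found in 4 of these windows, those of Nfe2l2, Gclm, Srxn1 and 1 of Txnrd1, and in 12.4% of 32851 windows over all genes. In Nfe2l2 it read TGACTCCGC, first base 240 bases before the start, and in Srxn1 it lay 29 bases after the start. The 250 bases before the start are printed for Gclm and Txnrd1, which hold the core. They are also printed for Nqo1, one of the members called higher, which has no core in its window. The sequences are written 5′ to 3′ along the gene, with the core in capitals.
Gclm, GRCm38.p6 chr3:122245307-122245556, plus strand: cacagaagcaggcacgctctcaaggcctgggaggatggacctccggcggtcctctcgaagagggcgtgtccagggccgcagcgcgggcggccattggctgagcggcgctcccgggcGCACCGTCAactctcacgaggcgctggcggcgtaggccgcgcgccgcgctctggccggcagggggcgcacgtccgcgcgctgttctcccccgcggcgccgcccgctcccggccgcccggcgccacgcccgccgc
Txnrd1, GRCm38.p6 chr10:82858956-82859205, plus strand: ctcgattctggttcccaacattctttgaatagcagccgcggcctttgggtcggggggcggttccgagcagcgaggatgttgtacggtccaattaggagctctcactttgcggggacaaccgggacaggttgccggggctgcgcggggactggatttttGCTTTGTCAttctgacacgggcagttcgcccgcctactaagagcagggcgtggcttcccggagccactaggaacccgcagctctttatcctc
Nqo1, GRCm38.p6 chr8:107403206-107403455, minus strand: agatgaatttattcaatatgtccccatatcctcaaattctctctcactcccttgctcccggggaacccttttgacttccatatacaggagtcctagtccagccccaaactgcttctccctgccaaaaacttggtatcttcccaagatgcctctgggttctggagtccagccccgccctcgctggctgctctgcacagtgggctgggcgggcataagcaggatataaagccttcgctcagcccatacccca
In Gclm and Txnrd1 the core lay on the opposite strand, at 134 and 92 bases before the start. These matches describe the sequence of the windows, and bases farther from the start were not searched. Forms with another base in place of the C of TGAC were not searched either. The bases before the Srxn1 start hold one such form, TGAGTCAGC. Of the 4 genes with a core in the window, Srxn1, Gclm and Nfe2l2 were called higher in CD24+ cells and Txnrd1 was not, and of the 3 without one, Nqo1 and Gstm1 were called higher and Keap1 was not. Among all genes tested 23.8% were called higher. The share among all genes with a core was not computed, and a link between core and call was not tested.

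Of the 10 members, 6 were higher in CD24+ cells at an adjusted p below 0.05 (Nqo1, Gsta4, Gstm1, Srxn1, Gclm and Nfe2l2), 0 were lower and 4 did not pass the test (Keap1, Hmox1, Gclc and Txnrd1). All 10 had enough reads to be tested. Over all genes tested, 46.1% were called, 23.8% as higher and 22.3% as lower. The median log2 fold-change of the members was 0.26, and that of all genes tested was 0.02. The 3 values of each group did not overlap for 7 members, as for 57.3% of all genes tested. When all reads that match a single GENCODE gene were counted, whatever their annotation, 45.6% of 12116 genes were called. CPM from that count are relative to all such reads of the library, after TMM scaling. The same 6 members passed by that count and each kept its direction. Among annotated reads that match Gclm alone, Gclm did not pass (edgeR adjusted p = 0.0567). When each distinct sequence was counted once per library, Nfe2l2 and Gclm did not pass (log2 fold-changes 0.03 and 0.15) and Gstm1 was at 0.55. A sequence was read 1.74 to 2.91 times on average in a library for Nfe2l2, 6.53 to 11.0 times for Gclm and 1.62 to 3.91 times for Gstm1, and copies beyond the first do not enter that count. The part of this in the lost calls was not tested.

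**Figure D2:**
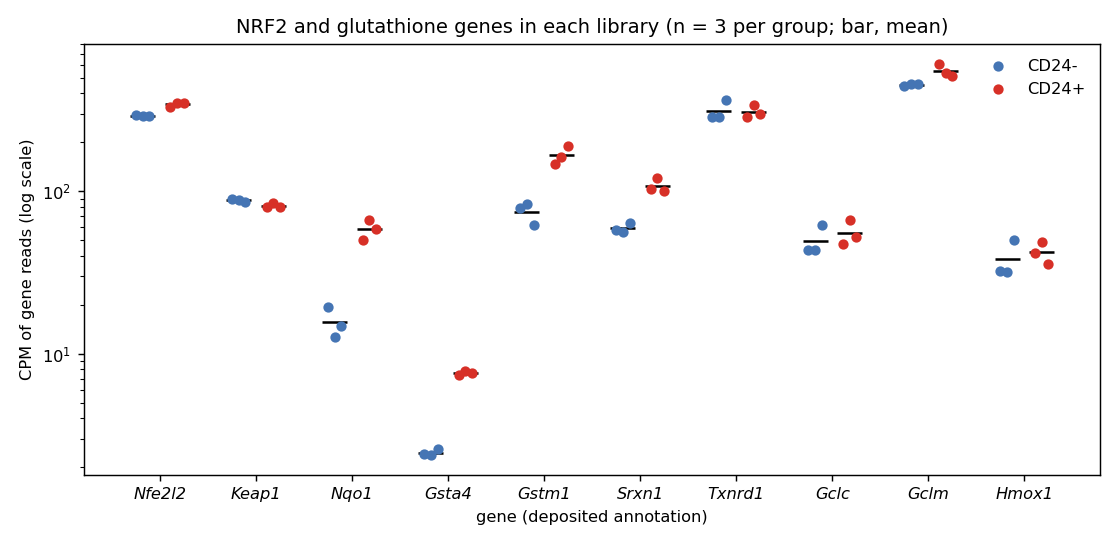
CPM of gene reads (y axis, log scale) of the 10 members in each library, with CD24- replicates 1 to 3 in blue and CD24+ replicates 1 to 3 in red from left to right, and the mean as a bar. Nqo1, Gsta4, Gstm1 and Srxn1 show wide gaps between the groups, whereas Txnrd1, Gclc and Hmox1 overlap.

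Nfe2l2 encodes NRF2 itself. Its reads in mm9 lay on chromosome 2 between 75513536 and 75542672. It had 296, 288 and 291 CPM in CD24- replicates 1, 2 and 3 and 331, 350 and 349 CPM in CD24+ replicates 1, 2 and 3. All CD24+ libraries were above all CD24- libraries, by a small margin. Its log2 fold-change was 0.23 (SE 0.072, edgeR adjusted p = 0.022), a 1.18-fold higher mean. This call was lost when any of 4 libraries was left out, namely CD24- replicate 1 (edgeR adjusted p = 0.0797), CD24- replicate 2 (0.094), CD24+ replicate 2 (0.0538) or CD24+ replicate 3 (0.0924), although the log2 fold-change stayed at 0.21 to 0.25 without any library. It was also lost with the replicate number as a block (edgeR adjusted p = 0.0769), after thinning to the shallowest library (0.0649) and by median coverage after the study's steps (limma adjusted p = 0.126).

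Keap1, the repressor of NRF2, was slightly lower in CD24+ libraries without passing the test. Its reads lay on chromosome 9 in mm9 between 21034464 and 21043298. The CD24- libraries had 89.0, 88.2 and 85.9 CPM, and the CD24+ libraries 80.2, 84.3 and 79.7 CPM. The groups did not overlap, but the log2 fold-change was -0.11 with a 95% interval from -0.27 to 0.06 (edgeR adjusted p = 0.268). The ratio of the mean levels, 0.929, was thus within what the spread of the test allows. Among reads matching Keap1 alone the means were 78.2 ± 0.807 and 70.6 ± 3.22 CPM (SD, n = 3 each), and the log2 fold-change was -0.15 (edgeR adjusted p = 0.152).

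NAD(P)H quinone dehydrogenase, the enzyme of Nqo1, reduces quinones by a pair of electrons and so keeps them from redox cycling. Its reads lay on chromosome 8 in mm9 between 109912080 and 109927135. It had 19.4, 12.6 and 14.9 CPM in the CD24- libraries and 50.3, 66.3 and 58.5 CPM in the CD24+ libraries. The lowest CD24+ library was well above the highest CD24- library. By edgeR the log2 fold-change was 1.91 (SE 0.16, edgeR adjusted p = 5.85e-06), and leaving out each library in turn gave 1.77 to 2.10. This was the largest estimate among the members, but its 95% interval, 1.56 to 2.27, overlapped that of Gsta4, 1.22 to 2.04, and with distinct sequences counted once Nqo1 was at 1.55 and Gsta4 at 1.70. By median coverage after the study's steps, which add 10 to each value, it was 0.98. Divided at the midpoint of the transcript, the CPM was 3.47-fold higher over the 5′ part and 3.94-fold higher over the 3′ part.

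The glutathione S-transferases couple glutathione to electrophiles. Gsta4, an alpha-class enzyme that acts on the lipid peroxidation product hydroxynonenal, was the least abundant member, with 402 reads in all. It had 2.42, 2.37 and 2.59 CPM in the CD24- libraries, from 23 to 25 reads each, and 7.39, 7.79 and 7.65 CPM in the CD24+ libraries, from 47 to 146 reads each. The groups lay far apart and were tight within themselves. This gave a log2 fold-change of 1.63 (SE 0.18, edgeR adjusted p = 4.98e-05), but of 0.33 by median coverage (limma adjusted p = 0.00262). Its reads lay on chromosome 9 in mm9 between 78042436 and 78057148.

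Gstm1 is a mu-class enzyme, and its reads lay on chromosome 3 in mm9 between 107815155 and 107820866. The CD24- libraries had 79.2, 83.4 and 61.9 CPM, and the CD24+ libraries 147, 162 and 189 CPM. Every CD24+ library was higher than every CD24- library. For Gstm1 the log2 fold-change was 1.15 (SE 0.13, edgeR adjusted p = 4.25e-05), and it was 1.14 among reads matching Gstm1 alone and 0.75 by median coverage. Gstm2 was at 28.6 ± 1.98 and 28.1 ± 3.63 CPM (SD, n = 3 each) and Gstm4 at 4.44 ± 0.950 and 4.46 ± 0.507 CPM, with log2 fold-changes of -0.03 and -0.02. For Gstm5 and Gstm7 the values were 0.52 and 0.84 as annotated (edgeR adjusted p = 0.0532 and 0.0591), and 0.60 and 0.98 from single-gene reads, by which both passed the test (edgeR adjusted p = 0.035 and 0.0201). Gstm3 and Gsta1 were called in opposite directions (1.20 and -2.39), but Gstm3 had 91 reads, of which 90.1% matched another gene, chiefly Gstm1, and Gsta1 had 99 reads, of which 86.9% matched another gene.

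Srxn1 and Txnrd1 serve the thioredoxin system. Sulfiredoxin, the protein of Srxn1, repairs overoxidized peroxiredoxins. Its reads lay on chromosome 2 in mm9 between 151931423 and 151936983. It had 57.8, 55.9 and 63.3 CPM in the CD24- libraries and 104, 120 and 101 CPM in the CD24+ libraries, with no overlap. For Srxn1 it was 0.88 on the log2 fold-change scale (SE 0.095, edgeR adjusted p = 3.97e-05). A further 2678 reads matched Srxn1 alone but carried a repeat annotation, and these were also higher in every CD24+ library, at 25.0 ± 3.66 and 46.7 ± 4.68 CPM (SD, n = 3 each).

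Thioredoxin reductase, the enzyme of Txnrd1, was as abundant as Nfe2l2 in CPM and did not differ measurably between the groups. Its reads lay on chromosome 10 in mm9 between 82298556 and 82360458. The CD24- libraries had 286, 284 and 366 CPM and the CD24+ libraries 286, 340 and 298 CPM, so the groups overlapped fully. The log2 fold-change was -0.02, with a 95% interval from -0.27 to 0.24 (edgeR adjusted p = 0.915), and its sign turned with upper-quartile scaling (0.03). The interval leaves out a change of the size seen for Srxn1.

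Gclc and Gclm encode the catalytic and the modifier subunit of glutamate-cysteine ligase, which sets the pace of glutathione synthesis. Gclc had 43.2, 43.4 and 62.0 CPM in the CD24- libraries and 47.3, 66.2 and 52.3 CPM in the CD24+ libraries, on chromosome 9 in mm9 between 77602570 and 77641456. CD24- replicate 3 stood within the CD24+ range and the other CD24- libraries below it. Its change was 0.17 in log2 fold-change, with a 95% interval from -0.19 to 0.53 (edgeR adjusted p = 0.41). Without CD24- replicate 3 it was 0.37 and passed the test (edgeR adjusted p = 0.0477). Without CD24+ replicate 2 it was 0.0095 (edgeR adjusted p = 0.967), the lowest value with any library left out.

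As annotated, Gclm had 445, 455 and 459 CPM in the CD24- libraries and 610, 531 and 514 CPM in the CD24+ libraries, on chromosome 3 in mm9 between 121948467 and 121969609. The log2 fold-change was 0.28 (SE 0.086, edgeR adjusted p = 0.0205), and the call was lost without CD24- replicate 1 (edgeR adjusted p = 0.088) or replicate 2 (0.0681) and with the replicate number as a block (0.0503). Most of that level belongs to reads that match Ppia, which alone gave 385 to 412 CPM in CD24- libraries and 446 to 539 CPM in CD24+ libraries. Counted from reads that match Gclm and no other gene, whatever their annotation, the level was lower and the estimate of the change higher. These reads gave 58.1, 54.6 and 82.1 CPM in the CD24- libraries and 91.4, 111 and 89.2 CPM in the CD24+ libraries, again with no overlap. Their log2 fold-change was 0.59 (SE 0.15, edgeR adjusted p = 0.00955). This count leaves out all reads that match another gene and also adds 1838 reads that match Gclm but were not annotated to it. Its CPM are relative to all reads that match a single gene, whereas the CPM that follow are relative to all gene reads. Without those 1838 reads, the annotated reads that match Gclm alone gave 42.0, 38.0 and 62.7 CPM in the CD24- libraries and 61.8, 72.3 and 58.5 CPM in the CD24+ libraries. These groups overlapped, and the call was lost, with a log2 fold-change of 0.44 (95% interval 0.06 to 0.82, edgeR adjusted p = 0.0567). CD24+ replicate 1 was the highest of its group by the annotated count and CD24+ replicate 2 by the reads of Gclm alone, so the order of libraries within the group depended on the Ppia-matching reads. Over the 5′ part of the transcript the Gclm reads were 1.43-fold higher with overlapping groups, and over the 3′ part 2.10-fold higher without overlap.

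**Figure D3:**
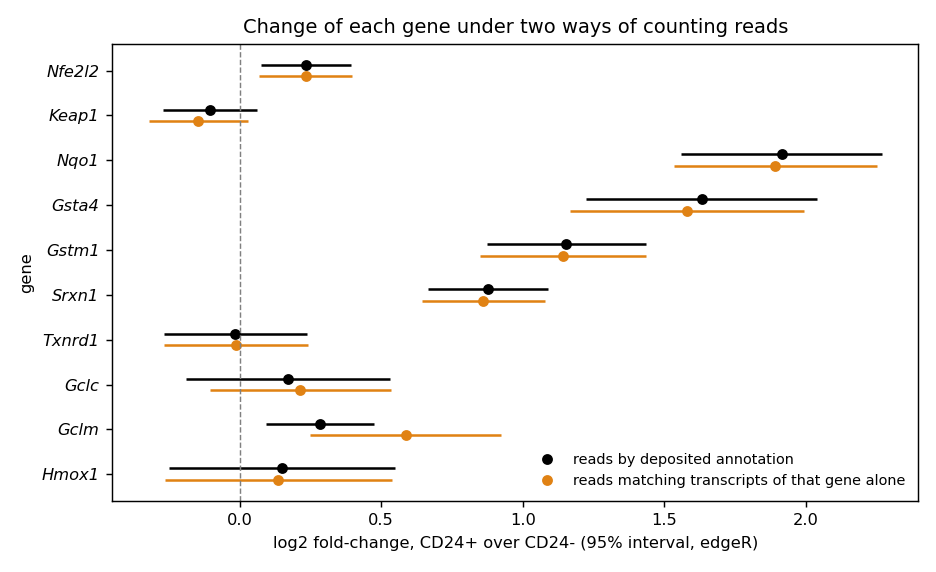
Log2 fold-change of CD24+ over CD24- cells (x axis) with its 95% interval from edgeR for each member, from reads as annotated (black) and from reads that match that gene alone (orange). The estimates lie close together except for Gclm, which moves from 0.28 to 0.59.

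Heme oxygenase, the enzyme of Hmox1, splits heme into biliverdin, iron and carbon monoxide and is a widely used readout of oxidative stress. It had 32.2, 31.9 and 49.8 CPM in the CD24- libraries and 41.5, 48.8 and 35.7 CPM in the CD24+ libraries, on chromosome 8 in mm9 between 77617479 and 77624463. The highest value of all was in CD24- replicate 3, and the groups overlapped. The log2 fold-change was 0.15, with a 95% interval from -0.25 to 0.55 (edgeR adjusted p = 0.517). Leaving out CD24+ replicate 2 brought it to 0.0072 (edgeR adjusted p = 0.98), the lowest value with any library left out. Leaving out CD24- replicate 3 brought it to 0.39 and past the threshold (edgeR adjusted p = 0.0368). That library was the highest of its group for 6 of the 10 members (Hmox1, Gclc, Gclm, Txnrd1, Srxn1 and Gsta4), and CD24+ replicate 2 was the highest of its group for 8, that is all but Gclm and Gstm1.

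Levels of different genes were compared per kilobase of 1 transcript, using reads that match a single gene. In CD24- cells Nfe2l2 was highest at 115 CPM per kilobase, followed by Txnrd1 (82.9), Gstm1 (48.4), Srxn1 (30.6), Hmox1 (24.2), Keap1 (21.6), Gclc (16.0), Gclm (11.6), Nqo1 (10.3) and Gsta4 (2.59). In CD24+ cells the level of Nfe2l2 was 135 CPM per kilobase and that of Gstm1, at 107, stood above that of Txnrd1, at 82.1. Srxn1 had 55.5, Nqo1 37.7, Hmox1 26.5, Keap1 19.5, Gclc 18.4, Gclm 17.4 and Gsta4 7.73 CPM per kilobase. Nqo1, which ranked 9 of 10 in CD24- cells, ranked 5 in CD24+ cells. Among neighbours in this order, the ranges over the 3 libraries overlapped in CD24- cells for Srxn1 with Hmox1, Hmox1 with Keap1, Gclc with Gclm and Gclm with Nqo1, and in CD24+ cells for Keap1 with Gclc and Gclc with Gclm. These levels depend on the transcript length chosen and on exon junctions, over which exact matching loses reads. They also leave out shared reads, such as the 21.5% of Keap1 and 17.0% of Gstm1 annotated reads that matched another gene. For Gclm, with a transcript of 5589 nt, the CD24- mean was 58.5 CPM over the 5′ part and 6.31 over the 3′ part.

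**Figure D4:**
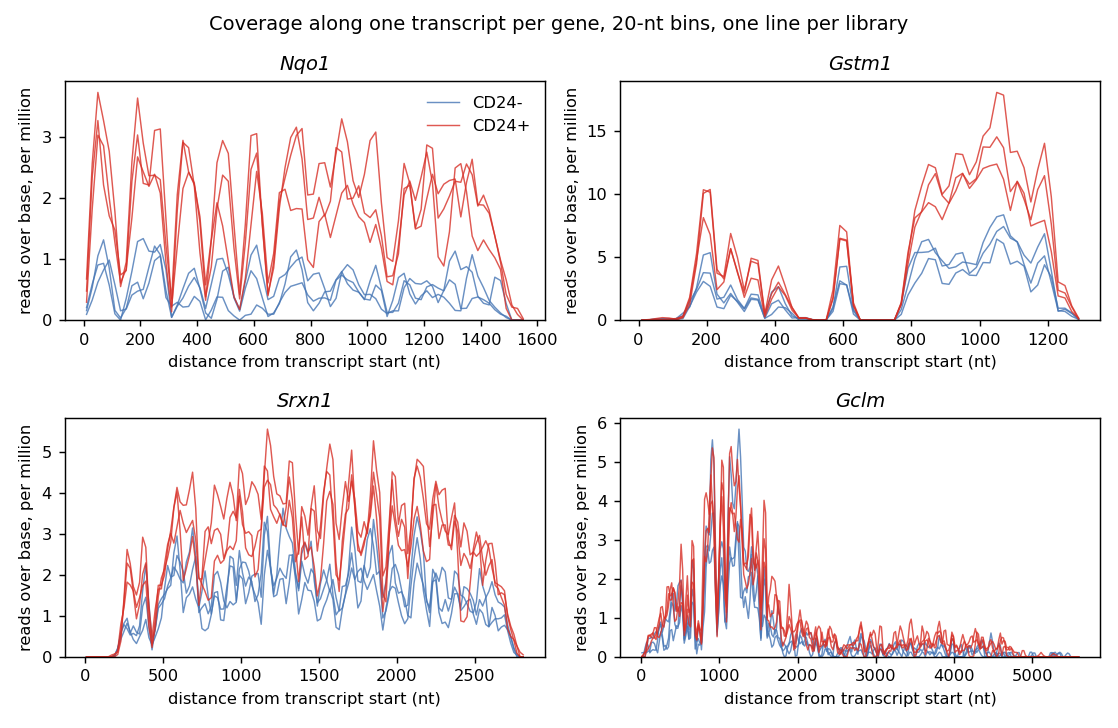
Reads over each base relative to the library's reads that match a single gene (y axis, with its scale on the axis) along 1 GENCODE transcript (x axis, distance from its start in nucleotides, bins of 20) for Nqo1, Gstm1, Srxn1 and Gclm, from reads that match the gene alone, with a line per library. The CD24+ lines (red) run above the CD24- lines (blue) over most of Nqo1, Gstm1 and Srxn1 and are interleaved with them over much of Gclm.

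The wider pathway was described by 110 other genes in 9 lists. Of these, 103 had an annotation with reads and 91 were tested, of which 31 were higher in CD24+ cells, 19 were lower and 41 did not pass the test. Their median log2 fold-change was 0.05, beside 0.02 for all genes tested. The counts by list were as follows, with the background shares of 23.8% higher and 22.3% lower given above.

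Among 11 tested regulators and partners of NRF2, 2 rose and 2 fell. Nfe2l1, a related factor with targets in the proteasome, had the largest rise (0.52, edgeR adjusted p = 0.00214). With distinct sequences counted once it was at 0.24 and lost the call (edgeR adjusted p = 0.212). Mafk, a small MAF partner of NRF2, had the largest fall (-0.64, edgeR adjusted p = 0.00176, and -0.37 by median coverage). Sqstm1, the autophagy receptor that binds KEAP1, was the most abundant of the list at 581 ± 54.8 and 632 ± 123 CPM (SD, n = 3 each) and was not called.

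In glutathione supply and recycling, 6 of 13 tested genes rose and 4 fell. Chac1, which degrades glutathione, had the largest rise of the list, from 3.37, 4.17 and 8.79 CPM in CD24- libraries to 97.8, 51.1 and 70.7 CPM in CD24+ libraries (log2 fold-change 3.75, edgeR adjusted p = 7.57e-06, and 1.49 by median coverage). Slc3a2, the heavy chain of the cystine transporter and of other amino acid transporters, rose from 185 ± 32.6 to 467 ± 89.0 CPM (log2 fold-change 1.34, edgeR adjusted p = 6.90e-05). With distinct sequences counted once its log2 fold-change was 0.55 (edgeR adjusted p = 0.0405). Ggct, of the glutamyl cycle, fell by 1.41 on the log2 scale. At lower levels, Ggt7 and Oplah, also of that cycle, had log2 fold-changes of 2.32 and 1.73 and were called, and both were named after their values were seen.

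The list of other glutathione S-transferases divided, with 4 of 17 tested genes higher and 6 lower. Mgst1, a membrane-bound enzyme, rose from 10.9 ± 4.24 to 36.4 ± 6.65 CPM (log2 fold-change 1.73, edgeR adjusted p = 2.93e-04), and Mgst3, another of that kind, fell from 56.3 ± 3.60 to 22.1 ± 2.03 CPM (log2 fold-change -1.35, edgeR adjusted p = 3.68e-06). By median coverage these values were 0.89 and -0.49. Gstp1 was the most abundant at 177 ± 27.4 and 207 ± 14.2 CPM and was not called, and 75.2% of its reads also matched another gene, chiefly Gstp2. Of 3 tested glutathione peroxidases 2 rose, with the largest change in Gpx8 of the endoplasmic reticulum (1.28, edgeR adjusted p = 5.57e-05, and 0.77 by median coverage), whereas Gpx1, the most abundant, was at 211 ± 46.5 and 214 ± 28.7 CPM.

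Of 11 thioredoxins and peroxiredoxins, 3 rose and 2 fell. Prdx4, the peroxiredoxin of the endoplasmic reticulum, rose by a log2 fold-change of 0.55 (edgeR adjusted p = 0.00356). With distinct sequences counted once it was at 0.23 and lost the call (edgeR adjusted p = 0.225). Txnip, the inhibitor of thioredoxin, fell by 1.50 on the log2 scale (edgeR adjusted p = 3.83e-04, and by 0.95 in median coverage). Prdx1, the most abundant, was at 849 ± 16.1 and 733 ± 78.2 CPM and was not called (-0.21, edgeR adjusted p = 0.0823), though it passed as lower without TMM, without CD24+ replicate 1 and by DESeq2. Of 5 genes acting on superoxide and hydrogen peroxide, 2 rose. Sod3, the secreted superoxide dismutase, went from 45.4 ± 6.16 to 223 ± 33.9 CPM (log2 fold-change 2.30, edgeR adjusted p = 5.03e-07, but 0.19 by median coverage), while the cytosolic Sod1 was at 208 ± 16.1 and 197 ± 11.6 CPM.

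Among 15 tested enzymes for quinones, aldehydes and conjugation together with efflux pumps, 3 rose and 4 fell. Ephx1, the microsomal epoxide hydrolase, rose by a log2 fold-change of 0.81 (edgeR adjusted p = 1.25e-04), and by less with distinct sequences counted once. Abcc3, an efflux pump for conjugates, had 66.5, 65.3 and 33.7 CPM in CD24- libraries and 2.99, 2.20 and 2.36 CPM in CD24+ libraries, the largest change of any listed gene (log2 fold-change -4.51, edgeR adjusted p = 1.01e-06, but -0.56 by median coverage). Akr1a1, an aldehyde reductase annotated as Akr1a4, was the most abundant of the list at 439 to 534 CPM over the 6 libraries and was not called, but passed as lower by median coverage (-0.20, limma adjusted p = 0.0472).

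For heme and iron, 4 of 8 tested genes rose and 0 fell. Blvrb, a biliverdin reductase, had the largest rise (1.19, edgeR adjusted p = 0.00133, and 0.48 by median coverage), and Fth1, the heavy chain of ferritin that stores iron, rose from 1908 ± 80.5 to 3369 ± 147 CPM (log2 fold-change 0.82, edgeR adjusted p = 2.46e-05). The call of Fth1 was lost with distinct sequences counted once. In NADPH supply, 5 of 8 genes rose and 1 fell. Idh1, the cytosolic isocitrate dehydrogenase, rose by 0.75 (edgeR adjusted p = 0.00985), the mitochondrial Idh2 fell by 0.35 on the log2 scale (edgeR adjusted p = 0.0203), and Tkt, the transketolase and most abundant of the list, narrowly missed the threshold (-0.33, edgeR adjusted p = 0.0514). Tkt passed as lower under 7 alternatives, among them DESeq2 (adjusted p = 0.0216) and single-gene reads (edgeR adjusted p = 0.0383). The call of Idh2 was lost without CD24- replicate 1 (edgeR adjusted p = 0.0838) or replicate 2 (0.0884). With distinct sequences counted once, the calls of Idh1 and Idh2 were lost.

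**Figure D5:**
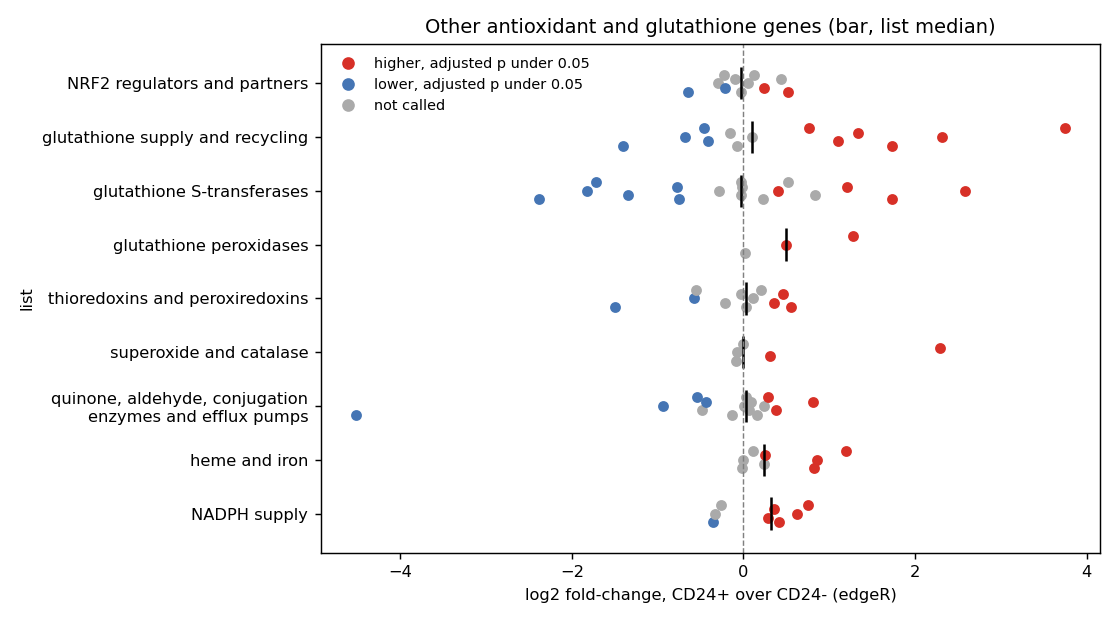
Log2 fold-change of CD24+ over CD24- cells (x axis, edgeR) for the 91 tested genes of the 9 lists, with genes called higher in red, called lower in blue and not called in grey, and the median of each list as a bar. Genes moved both ways in most lists, from -4.51 for Abcc3 to 3.75 for Chac1.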

How the data were processed

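Messenger RNA was sequenced from 3 plates of CD24- and 3 of CD24+ Mvt1 cells. The authors trimmed reads to 47 nt, collapsed identical reads, mapped them to the mouse genome (mm9, per the submitters' processing notes) by exact match and gave each a location and an annotation. They deposited raw counts per sequence, not normalized and not pooled. Which mapping tool and annotation they used is not given in the sources used here. Sequences with a sequence variant or across exon junctions are lost, and counts carry no strand.

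Deposited counts were summed per gene annotation, leaving out repeats, small RNA and unannotated reads (25.7% to 28.2% of a library). Mapped reads numbered 9046025 to 25692147 per library. Genes passing filterByExpr were tested with edgeR 4.0.16 in R 4.3.3 (TMM, quasi-likelihood F test, Benjamini-Hochberg, threshold 0.05), after the code was tested on simulated data. Reads were also matched exactly to GENCODE M21 transcripts. No independent sorts are described, so p-values measure the spread between plates, which may be technical. Libraries of a group differed by more than sampling noise (chi-square over its degrees of freedom 1.75 to 16.1).

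The members, lists and tests were chosen with earlier results of these data known. Named in each list are the largest called rise and fall at a mean log2 CPM not below 3 and the most abundant tested gene, with Cd24a, the members, the Gstm and Gsta genes and the markers; other genes were named after their values were seen. Alternatives were other scalings and filters, DESeq2 1.42.0, distinct sequences counted once, single-gene reads, a replicate block, each library left out, thinning to the shallowest library, median coverage after the study's steps (limma 3.58.1) and a fold-change minimum. The median coverage was taken along a GENCODE M21 transcript per gene, from reads unique among those transcripts. It follows the study's median, quantile normalization and added value, but not its gene annotation, and the study names no test.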

Additional observations from a re-analysis of the deposited data

How the results depend on the processing

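Of 171 values of the members under the alternatives, 152 kept their direction and side of the threshold, 13 lost the call, 2 gained it and 4 changed sign. The 13 lost calls were those of Nfe2l2 and Gclm, 1 of them under the count of annotated reads that match Gclm alone, chosen after seeing the data. The calls of Nqo1, Gsta4, Gstm1 and Srxn1 held under every alternative except a minimum log2 fold-change of 1, under which Srxn1 was not called, but their sizes did not all hold. Median coverage after the study's steps brought Cd24a from 2.91 to 1.30, Nqo1 from 1.91 to 0.98, Gsta4 from 1.63 to 0.33, Sod3 from 2.30 to 0.19 and Abcc3 from -4.51 to -0.56. That alternative changes the measure, the scaling and the added value together. It also changes the reads used, the gene models and the test. Which of these moved the values was not tested. Of 406 values of the listed genes named as the largest rise or fall or the most abundant of a list, 7 lost the call (Idh2 without CD24- replicate 1 or 2, and Nfe2l1, Prdx4, Fth1, Idh1 and Idh2 with distinct sequences, at 0.24, 0.23, 0.042, 0.34 and -0.27), 10 gained it (Tkt 7 times and Prdx1 3 times) and 14 changed sign. Other genes given by name are not among these values. Of them, Gstm5 and Gstm7 gained the call from single-gene reads, and Bach2 and Gstm4 changed sign (Gstm4 from -0.02 to 0.035). With the minimum log2 fold-change of 1, 1600 of 11125 genes, 3 members and 18 listed genes were called, in place of 5130, 6 and 50. Median coverage after the study's steps gave 3213 of 9214 genes and 33 listed genes. Distinct sequences counted once gave 3697 of 11078 genes and 31 listed genes. That count brought Slc3a2 from 1.34 to 0.55 and Ephx1 from 0.81 to 0.36. Fth1 had 12.9 to 35.3 reads per sequence in a library and Idh1 1.59 to 3.65, and the part of such repeats in these shifts was not tested. Leaving out each library gave 4069 to 5358 called genes, 4 to 8 members, 38 to 52 listed genes and 2.71 to 3.05 for the log2 fold-change of Cd24a. The replicate numbers did not pair the plates (correlations of deviations 0.0143, -0.251 and -0.31), and with the replicate block 4493 genes, 4 members and 46 listed genes were called, without Nfe2l2 and Gclm.

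Small changes turned sign. By median coverage Keap1 was at 0.0084, Gpx1 at -0.013 and Akr1a1 at -0.20, where it passed as lower (limma adjusted p = 0.0472). With distinct sequences Sqstm1 was at -0.077, Gstp1 at -0.0092, Gpx1 at -0.092 and Akr1a1 at -0.10. Txnrd1 was at 0.033 with upper-quartile scaling, Gpx1 at -0.0017 without TMM and -0.0035 from single-gene reads, and Akr1a1 at -0.0046 after thinning. Leaving out each library gave -0.10 to 0.11 for Txnrd1 (0.11 without CD24- replicate 3), -0.033 to 0.25 for Sqstm1 and -0.067 to 0.078 for Akr1a1 (both lowest without CD24+ replicate 1), and -0.088 to 0.22 for Gpx1 (below 0 without CD24- replicate 1, CD24- replicate 2 or CD24+ replicate 2). The cause of these shifts was not tested. Thinning to the shallowest library ended the call of Nfe2l2 (edgeR adjusted p = 0.0649) and moved Gclc from 0.17 to 0.030, while Gsta4, with as few as 23 reads in a library, went from 1.63 to 1.59 and stayed called.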

Other observations

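Of the 103 listed genes with reads besides the members, 10 had more than 50% of their annotated reads matching another gene in GENCODE M21. For Slc7a11, the light chain of the cystine transporter, 1905 of 3800 annotated reads matched Tuba1a, a tubulin gene. As annotated, Slc7a11 had 25.7, 30.2 and 38.3 CPM in CD24- libraries and 68.7, 64.4 and 69.1 CPM in CD24+ libraries, with a log2 fold-change of 1.10 (SE 0.13, edgeR adjusted p = 7.67e-05). From reads matching Slc7a11 alone the levels were 5.73, 4.85 and 16.4 CPM and 36.5, 37.1 and 42.3 CPM, and the log2 fold-change was 2.14 (SE 0.34, edgeR adjusted p = 5.04e-04). The groups did not overlap by either count.

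For Bach2, a repressor that competes for the same DNA element, 42.1% of the annotated reads matched only another gene, chiefly Ptp4a2, and the log2 fold-change was 0.43 as annotated and -0.36 from single-gene reads, passing the test by neither count (edgeR adjusted p = 0.16 and 0.305). The ferritin light chain Ftl1 and the aldose reductase Akr1b3 shared 96.0% and 91.3% of their reads with other genes, mostly predicted genes such as Gm10252 and Gm38056, and were called by neither count. A further 1838 reads matched Gclm alone but carried another annotation or none, and they were higher in every CD24+ library, at 15.5 ± 0.921 and 31.6 ± 3.96 CPM (SD, n = 3 each).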
